A study of Mus musculus with 6 samples.

Results

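Macrophages (MΦs) of the colonic lamina propria were compared between *Il10rb*-/- mice and their *Il10rb*+/- controls at 1 week of age, before weaning, gene by gene. A gene was kept when the deposited normalized counts reached 50 in either of the 2 libraries of this age and it did not lie on chromosome X or Y. This left 9853 of the 14097 genes of the series, 9 of them mitochondrial. Of the genes kept, 9448 reached 50 in both libraries, 225 in *Il10rb*-/- MΦs alone and 180 in *Il10rb*+/- MΦs alone. Each gene is described by its log2 ratio, *Il10rb*-/- over *Il10rb*+/-, in which a deposited value of 1 stands for 0 reads. The range after a ratio is its exact 95% interval for counting error.

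All mice were untreated, on the 129SvEv background, and carried the *Il10rb* null allele on both chromosomes (*Il10rb*-/-) or on 1 (*Il10rb*+/-), so that the controls had a disrupted copy too and no wild-type mice were sequenced. The P3/P4 population, the CD64+ MHCII+ MΦs that have lost Ly6C and count as the resident pool, was sorted directly ex vivo by the gate CD45+CD11b+CD11cintCD103-CD64+Ly6C-MHCII+. Each 1-week library held RNA of pooled mice, 3 to 5 per pool in the sample labels, and the methods of the study place these mice slightly past 1 week of life. There was 1 library per genotype, so that neither the spread between mice nor a p-value could be computed, and every difference below is a difference between 2 pools. The series holds 6 libraries in all, with a single mouse behind each of the 4 libraries at 3 and 12 weeks.

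The IL10 receptor is a heterotetramer of chains of IL10Rα, which binds the cytokine, and of IL10Rβ, the product of *Il10rb*. IL10Rβ is also a chain of the receptors for IL22, IL26 and the type III interferons. In MΦs the IL10 receptor signals through JAK1, TYK2 and STAT3 and restrains the transcription of inflammatory cytokines, so that gut MΦs remain tolerant of microbial products. MΦs of the newborn gut arise in part from embryonic precursors and are replaced by descendants of blood monocytes around weaning.

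*Il10rb* itself (chr16:91406164-91425834, GRCm38) stood at 1221 normalized counts in *Il10rb*+/- against 12.0 in *Il10rb*-/- MΦs, 1231 reads against 8, a log2 ratio of -6.67 (-7.89 to -5.69). The 16 neighbours of the gene on chromosome 16 that were kept, among them *Ifnar1*, *Ifnar2* and *Ifngr2*, had ratios between -0.40 and 0.85. The 1-week libraries held 14952689 (*Il10rb*+/-) and 9892762 (*Il10rb*-/-) reads on genes. Of the 12 sort antigens listed, the defining markers were present in both: *Fcgr1*, which encodes CD64, stood at 1927 and 2043, and the MHC class II chain gene *H2-Ab1* at 153618 and 171779 normalized counts, while the Ly6C genes *Ly6c1* and *Ly6c2* had between 0 and 6 reads and *Itgae*, which encodes CD103, 13 and 10. Of the sort antigens 9 were kept, 5 with a ratio above 0 and 4 below it. The 4 lower were *Ptprc* (log2 ratio -0.55), *Adgre1* (-0.51), *Itgam* (-0.31) and *Itgax* (-0.27). The 20 resident MΦ markers were all kept, with a median ratio of 0.01 and 10 above and 10 below 0. The pools differed in Y-linked reads: 4 genes of the Y chromosome (*Ddx3y*, *Eif2s3y*, *Uty* and *Kdm5d*) had 1123 reads in the *Il10rb*+/- and 6 in the *Il10rb*-/- pool, so that genotype and the share of males cannot be told apart.

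Most genes lay close together in the 2 pools. The median log2 ratio was -0.05, the middle 50% of genes spanned -0.29 to 0.21, and 95.9% of genes were within 2-fold. Over 3-fold higher in *Il10rb*-/- MΦs were 88 genes, 0.893% of those kept, and 39 were over 3-fold lower, 0.396%. Of the 88 higher genes 55 had been kept through the *Il10rb*-/- library alone, and of the 39 lower ones 24 through the *Il10rb*+/- library alone, so that the filter itself favoured a difference there. By the bound of the counting interval nearest to no difference, 47 and 13 genes were past 3-fold. The threshold fell between ratios of 1.59 and 1.58 on the higher side and -1.59 and -1.57 on the lower. Genes past it were mostly of low level: 62 of the 88 and 27 of the 39 were in the lowest quintile of mean normalized counts, where the 1-week libraries hold fewest reads. For 66 of the 88 the *Il10rb*+/- pool was the lowest of all 6 libraries of the series, 75% against 17.0% of genes kept. The *Il10rb*-/- pool was the highest of the 6 for 9 of the 88, 10.2% against 12.8%. Of the 39, the *Il10rb*+/- pool was the highest for 15 (38.5% against 25.7%) and the *Il10rb*-/- pool the lowest for 14 (35.9% against 13.1%). The ratio of these same 2 pools chose the genes, which favours such extremes in advance. The shares over all genes kept therefore do not show how unusual these counts are.

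**Figure D1:**
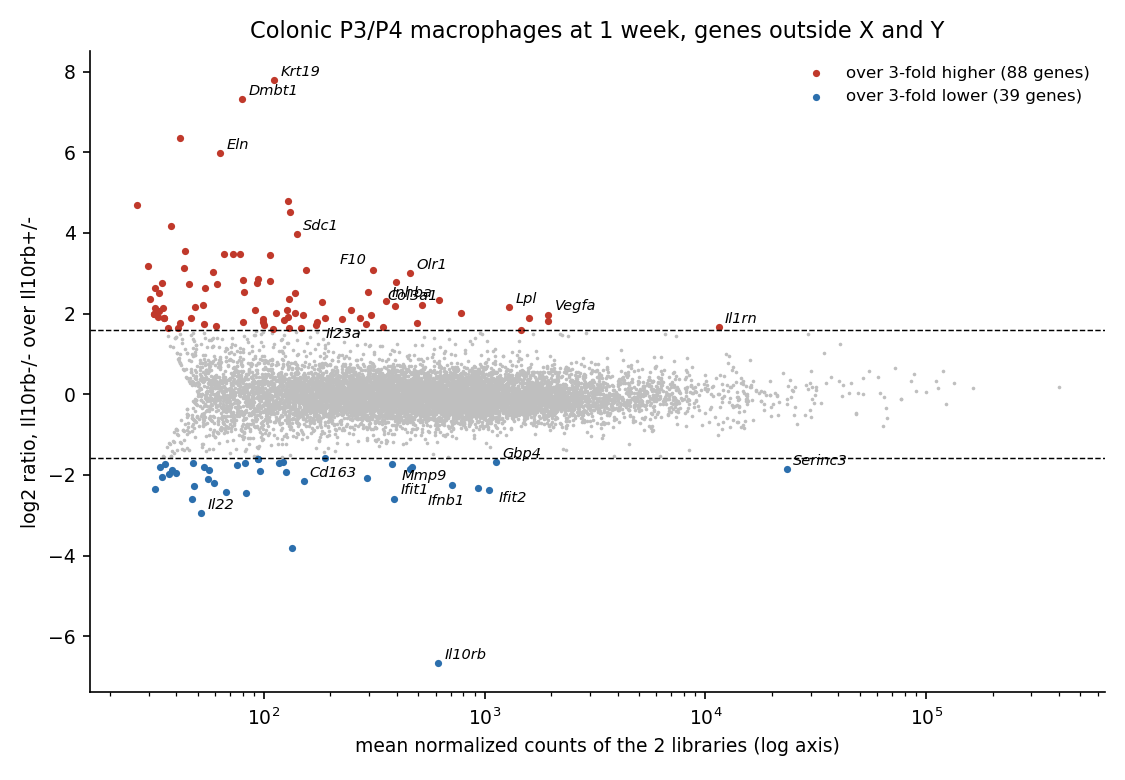
Log2 ratio of each of the 9853 genes at 1 week against its mean normalized counts in both pools (log axis), with dashed lines at 3-fold. The 88 higher genes (red) and 39 lower genes (blue) gather at low levels, and *Il10rb*, *Serinc3* and *Il1rn* stand out at higher ones.

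The genes of inflammatory cytokines and enzymes lay on balance above 0 in *Il10rb*-/- MΦs, with 2 of them past 3-fold. Of 28 genes listed 22 were kept, and 17 of these had a positive ratio, against 44.6% of all genes kept. Their median was 0.42 beside -0.05 over all genes. Of the 22, 5 had been kept through the *Il10rb*-/- library alone, which fixed a positive sign for them. Less the median of the same decile of exonic length, the list had a median of 0.34, with 15 genes above 0 and 7 below. The highest ratio was that of *Inhba* (chr13:16011851-16031621), which encodes the βA chain of activin A: 119 normalized counts in *Il10rb*+/- against 593 in *Il10rb*-/- MΦs, a ratio of 2.32 (2.02 to 2.62). *Il23a* (chr10:128296139-128298752), the p19 subunit that makes IL23 together with the p40 of *Il12b*, followed with 77.3 and 269.6 (log2 ratio 1.80, 1.41 to 2.20). The *Il12b* subunit itself differed little, at 221 and 271 normalized counts (log2 ratio 0.29, 0.00 to 0.58).

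Other mediators of the list were below 3-fold. The pyrogen gene *Il6* stood at 114 and 277 normalized counts (log2 ratio 1.28, 0.94 to 1.63), and *Osm*, a cytokine of the IL6 family, at 5761 and 10675 (log2 ratio 0.89, 0.84 to 0.94). The abundant *Il1b* (44268 and 66014), *Ptgs2* (18429 and 26653), which makes prostaglandins, and *Il1a* (8488 and 10108) had ratios of 0.58, 0.53 and 0.25. Some went the other way. *Tnf* was lower in *Il10rb*-/- MΦs, 19089.5 against 10767 normalized counts (log2 ratio -0.83, -0.87 to -0.79), and *Il27*, which encodes the p28 chain of IL27, had 103 and 50.9 (log2 ratio -1.02, -1.62 to -0.45).

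The genes of nitric oxide synthase 2 and of the p35 chain of IL12 were nearly silent at this age. *Nos2* had 2 and 3 reads and *Il12a* 3 and 7 in the pools of *Il10rb*+/- and *Il10rb*-/- mice, respectively, below the filter, and at this depth no difference could be read from them. *Il10* had 1329.6 and 1120.3 normalized counts, a ratio of -0.25 (-0.38 to -0.12).

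The chemokine genes were spread around 0. Of the CC chemokines 12 of 16 were kept with a median of 0.26, or -0.02 relative to genes of like length (less the median of the same decile of exonic length), and none past 3-fold, the extremes being *Ccl5*, which draws T cells (log2 ratio -1.22, -1.58 to -0.87), and *Ccl9* (log2 ratio 1.47, 1.37 to 1.58). Among the CXC and CX3C chemokines (10 of 14 kept, median 0.06) only *Cxcl14* was past 3-fold, with 141 and 644 normalized counts (log2 ratio 2.19, 1.92 to 2.48). The neutrophil chemoattractant *Cxcl2*, at 87652 and 92039.5 among the most abundant transcripts, had a ratio of 0.07 (0.06 to 0.09).

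The list of the IL10 receptor and STAT3 targets had no common direction. All 25 listed genes were kept, 15 with a positive and 10 with a negative ratio, and the median was 0.05. *Socs3*, the feedback inhibitor that STAT3 induces, stood at 16337 and 17516 normalized counts (log2 ratio 0.10, 0.07 to 0.13), and *Bcl3* at 825 and 1077 (log2 ratio 0.38, 0.24 to 0.53). The partner chain *Il10ra* had 8060.0 and 6222 (log2 ratio -0.37, -0.43 to -0.32), and *Stat3* 3128 and 3132 (log2 ratio 0.00, -0.08 to 0.08). Past 3-fold besides *Il10rb* was *Il1rn* alone, which encodes the antagonist of the IL1 receptor: 5509.8 and 17479 normalized counts (log2 ratio 1.67, 1.62 to 1.71), the higher gene with most reads of all those past 3-fold upward.

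Of 25 C-type lectin receptor genes 18 were kept, 1 through the *Il10rb*-/- library alone, and 5 were past 3-fold, all higher in *Il10rb*-/- MΦs, against 0.893% of all genes kept. The median over the list was 0.26, or 0.08 relative to genes of like length. *Clec4e* (Mincle) and its neighbour and partner *Clec4d*, which bind mycobacterial glycolipids, had 847 and 3005 (log2 ratio 1.83, 1.71 to 1.94) and 134 and 445 normalized counts (log2 ratio 1.73, 1.43 to 2.04). *Clec12a*, an inhibitory receptor for uric acid crystals, had 309 and 1254 (log2 ratio 2.02, 1.83 to 2.21). *Clec7a* (Dectin-1), a receptor of fungal glucan, was at 8249 and 16520.4 with a ratio of 1.00 (0.96 to 1.04), and the mannose receptor *Mrc1* at 14262 and 8578 had one of -0.73 (-0.78 to -0.69). The remaining pair, *Cd209f* (87.3 and 502 normalized counts, log2 ratio 2.52, 2.18 to 2.88) and *Cd209g* (22.8 and 165, log2 ratio 2.85, 2.19 to 3.57), are close copies between which reads can be split, so the single values are uncertain.

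The oxidized LDL receptor gene *Olr1*, which lies among the lectin genes of chromosome 6, had 102 normalized counts in *Il10rb*+/- against 816 in *Il10rb*-/- MΦs (log2 ratio 3.00, 2.69 to 3.32). The formyl peptide receptors that sense bacterial peptides were both higher: *Fpr1* had 13 and 95 reads (log2 ratio 3.46, 2.62 to 4.43) and *Fpr2* 81 and 199 (log2 ratio 1.89, 1.51 to 2.28). So was *Trem1*, an amplifier of myeloid activation, at 94.2 and 403 normalized counts (log2 ratio 2.10, 1.75 to 2.45). *Mefv*, which encodes the inflammasome sensor pyrin, had 115 and 428 (log2 ratio 1.90, 1.58 to 2.22), while the other 14 inflammasome genes kept were all below 3-fold and the list had a median of -0.11. *F10*, which encodes coagulation factor X, had 66.4 and 559 normalized counts (log2 ratio 3.07, 2.69 to 3.47), 8.41-fold.

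The Toll-like receptors and their adaptors (20 of 24 kept, median -0.14) had a single gene past 3-fold, and it was lower. This was *Irak4*, the kinase that carries the signal of the MyD88 adaptor, with 721 normalized counts in *Il10rb*+/- against 201 in *Il10rb*-/- MΦs (log2 ratio -1.84, -2.12 to -1.58). *Myd88* (1730.2 and 1419.9) had a ratio of -0.29 (-0.40 to -0.17) and *Tlr2* (5174 and 9219) one of 0.83 (0.78 to 0.89). *Irak4* overlaps *Twf1* on the opposite strand, and the strand setting of the counting is not given in the sources used here, so that reads of both cannot be told apart.

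The interferon-stimulated genes were on balance lower in *Il10rb*-/- than in *Il10rb*+/- MΦs at 1 week. Of 39 genes listed for type I interferon 35 were kept, 27 of them with a negative ratio, and the median was -0.59 beside -0.05 over all genes. For 25 of them the counting interval lay below 0, and for 1 above it. The 3 past 3-fold were *Ifit1*, *Ifit2* and *Rsad2* (viperin), all effectors against viral RNA or replication. *Ifit1* had 665 normalized counts in *Il10rb*+/- against 111 in *Il10rb*-/- MΦs (log2 ratio -2.59, -2.95 to -2.24). *Ifit2* had 1746 and 338 (log2 ratio -2.37, -2.57 to -2.17), and *Rsad2* 732 and 208 (log2 ratio -1.81, -2.09 to -1.55).

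*Ifnb1* (chr4:88522025-88522774), which encodes interferon β and was not on the list, stood at 1557 normalized counts in *Il10rb*+/- against 309 in *Il10rb*-/- MΦs (log2 ratio -2.33, -2.55 to -2.12). The other 32 genes of the list ranged from -1.11 (*Ifit3*, a gene with a near-identical copy) to 0.44 (*Ifitm3*). *Isg15*, a ubiquitin-like modifier, had 2249 and 1141 (log2 ratio -0.98, -1.10 to -0.86), *Oasl1* 1679.6 and 829.8 (log2 ratio -1.02, -1.16 to -0.88) and the transcription factor *Irf7* 530.5 and 353 (log2 ratio -0.59, -0.81 to -0.36).

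The list of interferon-γ genes (24 of 29 kept) had 18 negative ratios and a median of -0.25. *Gbp4*, a GTPase that acts on vacuoles of pathogens, was the one gene past 3-fold, with 1725 and 536 normalized counts (log2 ratio -1.69, -1.85 to -1.52), and its span overlaps those of *Gbp8* and *Gbp9* on the same strand. The chemokine *Cxcl10* (18499 and 10553, log2 ratio -0.81, -0.85 to -0.77) and the transcription factor *Irf1* (10356 and 5997, log2 ratio -0.79, -0.84 to -0.74) were lower by less than 3-fold. *Cxcl9* (135 and 277, log2 ratio 1.04, 0.71 to 1.37) and *Serpina3f* (50.6 and 148, log2 ratio 1.55, 1.05 to 2.07) were the highest of the list. The interferon-γ gene *Ifng* had 2 and 0 reads.

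The upstream stretches of the 4 lower genes that lead this account are shown to let the letters be read beside the values. They are RefSeq promoters of GRCm38.p6, 5′ to 3′ on the strand of the gene, from 250 to 51 bases before the start site. Capitals mark matches, on either strand, to GAAA and GAAA spaced by any 2 bases (the interferon response element, a search added after the values were seen), GGG and TTCC spaced by any 3 bases (NF-κB) or TTCNNNGAA (STAT).
*Ifit1* (chr19:34640639-34640838, + strand): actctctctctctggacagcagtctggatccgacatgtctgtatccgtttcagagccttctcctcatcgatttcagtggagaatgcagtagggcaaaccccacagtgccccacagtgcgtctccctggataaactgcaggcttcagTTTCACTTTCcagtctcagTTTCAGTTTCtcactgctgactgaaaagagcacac
*Ifit2* (chr19:34550444-34550643, + strand): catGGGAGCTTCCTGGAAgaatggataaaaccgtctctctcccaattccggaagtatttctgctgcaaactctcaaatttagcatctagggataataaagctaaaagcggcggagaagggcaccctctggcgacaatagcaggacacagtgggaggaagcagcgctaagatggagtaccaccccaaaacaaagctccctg
*Rsad2* (chr12:26456503-26456702, - strand): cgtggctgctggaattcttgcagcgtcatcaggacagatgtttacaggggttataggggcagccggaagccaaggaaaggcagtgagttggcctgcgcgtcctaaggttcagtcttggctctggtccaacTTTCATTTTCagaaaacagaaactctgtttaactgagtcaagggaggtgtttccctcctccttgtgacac
*Ifnb1* (chr4:88522845-88523044, - strand): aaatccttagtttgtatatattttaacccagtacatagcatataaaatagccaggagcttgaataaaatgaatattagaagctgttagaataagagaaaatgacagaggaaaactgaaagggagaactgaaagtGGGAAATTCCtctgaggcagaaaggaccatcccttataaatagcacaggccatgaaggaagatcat

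In these letters *Ifit1* held 2 interferon response matches, which start 104 and 85 bases before the start site, and *Rsad2* 1, which starts 120 bases before it. *Ifnb1* held 1 NF-κB match at 116 bases. In *Ifit2* an NF-κB and a STAT match overlap at the far end of the window, at 247 and 241 bases. Over the 250 bases before the start, the interferon response element was found in 12 of 24 genes of the type I interferon list with a promoter in the table, in 3 of 30 of the lower and 2 of 62 of the higher genes, and in 2.79% of all 7705 genes kept that have one. The NF-κB letters were in 5 of 30 lower and 2 of 62 higher genes against 5.19% of all, and the STAT letters in 2 of 30 and 3 of 62 against 5.96%. *Inhba* held none of the 3. A match is a description of letters and not a shown binding site.

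**Figure D2:**
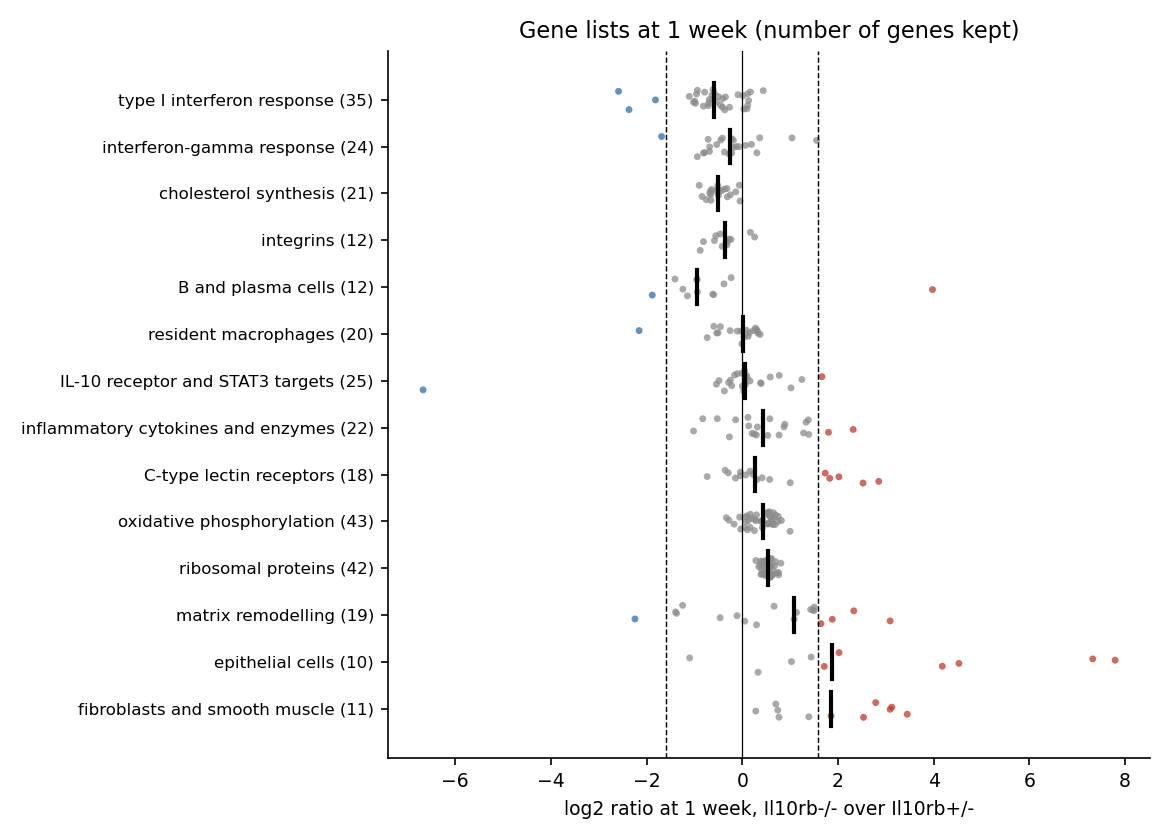
Log2 ratio at 1 week of every gene kept in 14 lists, 1 point a gene (red over 3-fold higher, blue over 3-fold lower, vertical scatter arbitrary), with the median of each list as a black bar and dashed lines at 3-fold. The bars run from -0.94 for B and plasma cells to 1.87 for epithelial cells, and the points of the cholesterol synthesis list all lie below 0 and those of the ribosomal proteins all above it. Of the epithelial genes 7 of 10 were kept through the *Il10rb*-/- library alone, which fixed their sign. Of the B and plasma cell genes 4 of 12 were kept through the *Il10rb*+/- library alone, with the same effect.

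Genes of long-lived tissue MΦs did not move together. Of 18 listed 15 were kept, with a median of -0.04, 2 past 3-fold higher and 1 lower. The lower one was *Cd163*, the scavenger receptor of hemoglobin and haptoglobin, with 247 normalized counts in *Il10rb*+/- against 55.4 in *Il10rb*-/- MΦs (log2 ratio -2.16, -2.69 to -1.65), and the higher ones were *Cd209f* and *Cd209g*. *Timd4*, a receptor for dying cells and a marker of self-maintaining gut MΦs, had 304 and 114 (log2 ratio -1.42, -1.80 to -1.05). *Stab1* (16428 and 9412, log2 ratio -0.80, -0.85 to -0.76) and *Cd4* (3227 and 2422, log2 ratio -0.41, -0.50 to -0.33) were lower by less. *Marco* (log2 ratio 1.38) and *Folr2* (0.34) were higher. Of the 15 genes 7 had a positive and 8 a negative ratio, and 2 were kept through the *Il10rb*-/- library alone.

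Of the scavenger and efferocytosis receptors 19 of 25 were kept, *Olr1* (log2 ratio 3.00) past 3-fold higher and *Cd163* (-2.16) past it lower. The 19 had 13 negative and 6 positive ratios and a median of -0.37. Of them *Gas6*, the bridging ligand of apoptotic cells, stood at 3810.4 and 2006 (log2 ratio -0.93, -1.02 to -0.84), its receptors *Mertk* at 1020.3 and 705 (log2 ratio -0.53, -0.69 to -0.37) and *Axl* at 17374 and 17723 (log2 ratio 0.03, -0.01 to 0.06). Iron handling had a median of 0.05 over 19 of 23 genes, with *Slc40a1* (ferroportin, the iron exporter) at 3257 and 1273 (log2 ratio -1.36, -1.47 to -1.25) and *Steap3*, a ferric reductase, at 24.8 and 82.4 (log2 ratio 1.73, 1.03 to 2.48).

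Of the monocyte list 10 of 18 were kept, with a median of 0.39, or 0.13 relative to genes of like length, and 1 gene, *Fn1*, past 3-fold. *Ccr2*, the receptor by which monocytes leave the marrow, was at 3960.1 and 10700.1 normalized counts (log2 ratio 1.43, 1.38 to 1.49). *F13a1* (746 and 455, log2 ratio -0.71, -0.91 to -0.52) was lower, and the 2 Ly6C genes had the few reads given above.

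The integrin genes were lower on balance: 10 of the 12 kept had negative ratios, none past 3-fold, with a median of -0.37. The largest differences were in *Itga9* (6856 and 3729, log2 ratio -0.88, -0.95 to -0.81) and *Itgav* (4873 and 2778, log2 ratio -0.81, -0.89 to -0.73), the αv chain that activates latent TGFβ.

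Matrix remodelling genes went both ways. Of 24 listed 19 were kept, 2 of them through the *Il10rb*-/- library alone, among these *Sparc*. Of the 19, 13 had a positive and 6 a negative ratio, 4 were past 3-fold higher and 1 lower, and the median was 1.08. The gelatinase gene *Mmp9* had 1169 normalized counts in *Il10rb*+/- against 247 in *Il10rb*-/- MΦs (log2 ratio -2.24, -2.49 to -2.01). The collagenase *Mmp13* (12168 and 4693, log2 ratio -1.37, -1.43 to -1.32) and the urokinase gene *Plau* (3393 and 1291, log2 ratio -1.39, -1.50 to -1.29) were lower by less than 3-fold. Higher in *Il10rb*-/- MΦs were the metalloproteinase *Adam8* (205 and 1032, log2 ratio 2.33, 2.10 to 2.56), *Fn1*, which encodes fibronectin (680.2 and 2504, log2 ratio 1.88, 1.75 to 2.01), *Adamdec1* (71.4 and 223, log2 ratio 1.64, 1.23 to 2.07) and the matrix protein *Sparc* (32.7 and 279, log2 ratio 3.09, 2.55 to 3.67). *Thbs1* (thrombospondin, 15219 and 43043), *Mmp12* (3416 and 9697) and *Spp1* (osteopontin, 1152 and 3217) lay just under 3-fold, at 1.50, 1.51 and 1.48.

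Of the growth factors of tissue repair, 16 of 30 were kept with a median of 0.33. *Vegfa*, the angiogenic factor, was the one past 3-fold, with 787 and 3089.9 normalized counts (log2 ratio 1.97, 1.85 to 2.09). *Areg*, an EGF receptor ligand, had 89.2 and 259 (log2 ratio 1.54, 1.16 to 1.92), and *Wnt4* 51.6 and 18.0 (log2 ratio -1.52, -2.56 to -0.60). Glycolysis and hypoxia genes, a list that also holds *Vegfa*, had a median of 0.24 over 22 of 26 genes, with the glucose transporter *Slc2a1* at 1480.3 and 2648 (log2 ratio 0.84, 0.74 to 0.94).

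Every gene kept of the cholesterol synthesis list was lower in *Il10rb*-/- MΦs, none past 3-fold: 21 of 21 had a negative ratio, between -0.90 and -0.05, and the median was -0.51. For 18 of them the counting interval lay below 0. The synthase *Hmgcs1* had 2859 and 1815 normalized counts (log2 ratio -0.66, -0.75 to -0.56). *Insig1*, which holds the sterol sensor in the endoplasmic reticulum and is itself a target of the pathway, had 5782 and 3614 (log2 ratio -0.68, -0.75 to -0.61).

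The genes of lipid uptake, storage and efflux (30 of 33 kept, median 0.10) had 3 past 3-fold, all higher. These were *Lpl*, the lipase that frees fatty acids from lipoproteins (470.0 and 2106, log2 ratio 2.16, 2.01 to 2.32), *Gpnmb*, a glycoprotein of lipid-laden MΦs (225 and 761, log2 ratio 1.76, 1.53 to 1.99), and *Nr1h3*, which encodes the oxysterol receptor LXRα (80.3 and 264, log2 ratio 1.71, 1.33 to 2.11). The desaturase *Scd1* was lower, 194 against 68.9 normalized counts (log2 ratio -1.50, -1.99 to -1.03).

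All 42 ribosomal protein genes had a positive ratio, with a counting interval above 0 for each, between 0.28 and 0.81, and the median was 0.54. Of 43 of 45 oxidative phosphorylation genes kept, 38 were positive, with a median of 0.43. Antioxidant and NRF2 genes had 18 of 21 positive and a median of 0.40, with the cystine transporter *Slc7a11* at 491 and 1224 (log2 ratio 1.32, 1.16 to 1.48). None of these 3 lists had a gene past 3-fold.

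The ratio also moved with gene length. Over quintiles of exonic length, from the shortest (at most 2604 bases) to the longest (at least 7751 bases), the median ratio was 0.19, 0.00, -0.08, -0.14 and -0.18 at 1 week. At 3 weeks the medians of the same quintiles lay between -0.02 and 0.03, and at 12 weeks between 0.02 and 0.08. The ribosomal protein genes had a median exonic length of 2204 bases and the respiratory genes 1916, against 4593 over all genes kept. Less the median of its own length decile, a correction added after the values were seen, the ribosomal median was 0.41 and the respiratory one 0.28, while those of type I interferon and cholesterol synthesis were -0.51 and -0.40. The antioxidant list went from 0.40 to 0.25 and the scavenger and efferocytosis receptors from -0.37 to -0.21. By GC content of the longest transcript the medians went from -0.11 in the lowest to 0.06 in the highest quintile.

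**Figure D3:**
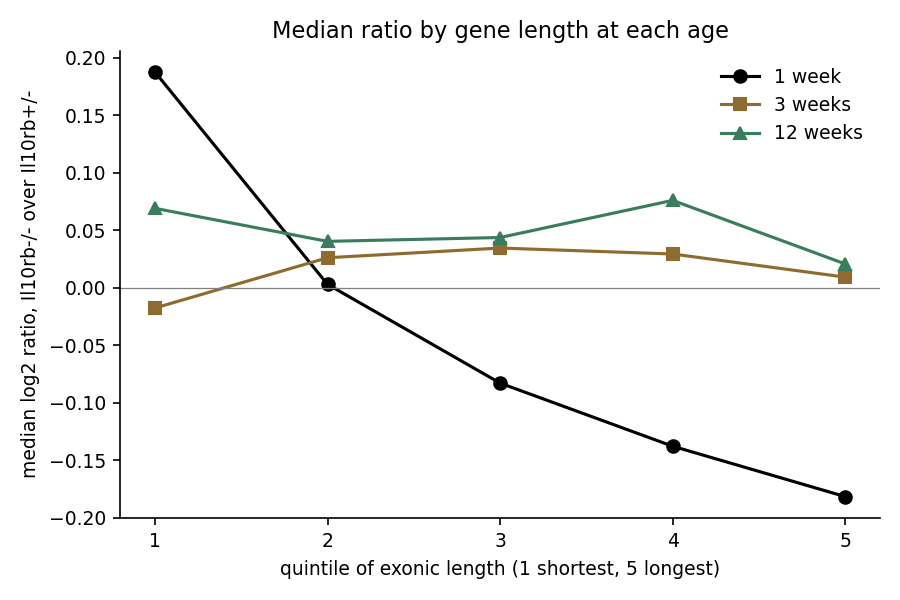
Median log2 ratio of the genes kept, by quintile of exonic length (1 shortest, 5 longest), at 1, 3 and 12 weeks. At 1 week the median goes from 0.19 in the shortest to -0.18 in the longest quintile, and at the later ages the quintiles stay between -0.02 and 0.08.

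Transcripts that mark other cells of the colon differed between the sorted pools. In a bulk library, fewer cells of a type and less RNA per cell cannot be told apart. Of 35 epithelial markers with values, 10 were kept, 7 of them through the *Il10rb*-/- library alone, and 6 were past 3-fold higher. The keratin genes led: *Krt19* had 0 reads in *Il10rb*+/- against 148 in *Il10rb*-/- MΦs, at least 74.5-fold higher against a floor of 3 reads, and *Krt8* had 11 and 168 reads (log2 ratio 4.53, 3.65 to 5.56). *Dmbt1*, a secreted mucosal scavenger protein, had 1 and 106 reads (log2 ratio 7.32, 4.81 to 12.64), and *Pigr*, which carries IgA across the epithelium, 4 and 48 (log2 ratio 4.18, 2.73 to 6.11). The summed level of all listed epithelial markers was 1037 normalized counts in *Il10rb*+/- against 2056 in *Il10rb*-/- MΦs, with 10 and 8 of the 35 at 0 reads, and it includes *Tspan8*, which went the other way (623 and 291, log2 ratio -1.10, -1.34 to -0.87). Among the higher genes that no list held, *Ckmt1* (0 and 55 reads, at least 27.7-fold) and *Lypd8* (9 and 166, log2 ratio 4.80, 3.84 to 5.95) are also known from colonocytes. On the opposite strand *Ckmt1* overlaps *Strc* and *Dmbt1* overlaps *Fgfr2*.

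Of 26 fibroblast and smooth muscle markers 11 were kept, 6 through the *Il10rb*-/- library alone, all with a positive ratio and 6 past 3-fold. The collagen genes *Col1a1*, *Col1a2* and *Col3a1* had 24, 18 and 101 reads in *Il10rb*+/- against 92, 130 and 462 in *Il10rb*-/- MΦs, with ratios of 2.53, 3.45 and 2.79. Outside the list, *Eln* (elastin) had 2 and 83 reads (log2 ratio 5.97, 4.07 to 9.04). The summed level of the list was 4375 and 6938 normalized counts, most of it *Gsn* (3819 and 4645), which MΦs express too. The part of these cells in the ratios of the matrix genes *Sparc* and *Fn1* was not tested.

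B cell markers went the opposite way. Of 16 with values, 12 were kept, 4 of them through the *Il10rb*+/- library alone. All but *Sdc1* had a negative ratio, from -1.88 to -0.23, as in *Ms4a1* (318 and 165, log2 ratio -0.95, -1.28 to -0.63) and *Cd79a* (587 and 306, log2 ratio -0.94, -1.18 to -0.71), with a median of -0.94. *Sdc1* (syndecan 1), a marker of plasma cells that epithelium also makes, had 17 and 177 reads (log2 ratio 3.98, 3.26 to 4.79). The summed level was 8768 in *Il10rb*+/- and 6384 in *Il10rb*-/- MΦs. Lower genes outside the list that B cells are known to express were *Cxcr5* (143 and 31 reads), *Fcrl1* (287 and 63), *Tnfrsf13c* (117 and 23), *Btla* (114 and 14) and *Ikzf3* (91 and 14).

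Defining genes of T cells and neutrophils had few reads or none. Of 27 T cell and innate lymphoid markers only *Il7r* and *Il22* were kept, and *Cd3e* had 0 and 1 reads. *Il22*, the cytokine of innate lymphoid cells, had 93 reads in *Il10rb*+/- against 8 in *Il10rb*-/- MΦs (log2 ratio -2.94, -4.20 to -1.91), and *Il22ra2*, which encodes the soluble antagonist of IL22, 7 and 54 (log2 ratio 3.54, 2.40 to 4.92). Of 20 neutrophil markers 4 were kept, among them *Csf3r* (1515 and 1559 normalized counts), which monocytes also express, and *S100a8* had 0 and 2 and *S100a9* 0 and 0 reads. *Ear2*, an eosinophil ribonuclease gene with near copies that resident MΦs can also express, had 27 and 125 (log2 ratio 2.81, 2.20 to 3.46), while the eosinophil marker *Siglecf* had 201 and 141 normalized counts (log2 ratio -0.52, -0.88 to -0.16). Without the genes on the marker lists of other cells, 73 genes were past 3-fold higher and 36 lower, and these still hold *Ckmt1*, *Lypd8* and the 5 B cell genes outside the lists.

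The gene with most reads past 3-fold was *Serinc3* (chr2:163623272-163645131), a membrane protein that restricts retroviruses. It had 36534 normalized counts in *Il10rb*+/- against 10152 in *Il10rb*-/- MΦs (log2 ratio -1.85, -1.89 to -1.81), and between 7253 and 8378 in the 4 libraries of the later ages, so that the *Il10rb*+/- pool at 1 week stood above all the others. That pool was also the one with most Y-linked reads of the series, and the share of males was not tested. An antisense transcript, *0610039K10Rik*, overlaps *Serinc3*. The largest ratio below 0 after *Il10rb* was that of *AI506816*, a noncoding transcript of chromosome 5 that holds a small nucleolar RNA gene in its span, with 253 and 12 reads (log2 ratio -3.80, -4.77 to -2.97). *C6*, a component of the complement pore, had 471 and 112 normalized counts (log2 ratio -2.07, -2.44 to -1.71), and *Il1rl1*, which encodes the IL33 receptor ST2, 98 and 14 reads (log2 ratio -2.21, -3.14 to -1.40).

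Among further higher genes, *Dcstamp*, which MΦs need to fuse, had 725 and 2182 normalized counts (log2 ratio 1.59, 1.46 to 1.72), and *Sgms2*, a sphingomyelin synthase, 12 and 89 reads (log2 ratio 3.49, 2.61 to 4.49). *Adora2b*, a receptor of adenosine, had 49 and 137 reads (log2 ratio 2.08, 1.60 to 2.58), *Nrg1*, a ligand of ErbB receptors, 16 and 71 (log2 ratio 2.74, 1.95 to 3.63), *Chil1*, a chitinase-like protein, 24 and 108 (log2 ratio 2.77, 2.12 to 3.47), and *Vdr*, the vitamin D receptor, 45 and 103 (log2 ratio 1.79, 1.27 to 2.33). *Lyz1* had 43 and 145 reads (log2 ratio 2.35, 1.85 to 2.88), but reads of its close copy *Lyz2* (56478 and 88072 normalized counts, log2 ratio 0.64, 0.62 to 0.66) can be split between both.

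The genes past 3-fold were spread over the chromosomes. Chromosome 6 held 11 of the higher genes (2.25% of its 489) and chromosome 8 held 9 (1.62% of its 556), against 0.893% over all, and chromosome 18 held none past 3-fold in either direction. Of the higher genes 85 and of the lower 38 were protein coding.

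The libraries of the later ages come from other mice and had no part in choosing the genes. Of the 88 genes higher at 1 week, 75 reached 50 normalized counts at 3 weeks, and 7 of them (9.33%) were over 3-fold higher in *Il10rb*-/- MΦs then, against 0.519% of the 9629 genes measured, while 1, *Ear2*, was over 3-fold lower, against 0.125%. At 12 weeks 82 could be read, of which 30 (36.6%) were over 3-fold higher, against 2.74% of 9514 genes, and 28 (34.1%) over 3-fold lower, against 6.57%. Among the 30 were *Car2*, *Dmbt1*, *Krt8*, *Lgals4* and *Pigr* of the epithelial list, and also *Ckmt1* and *Sdc1*. The 28 hold the fibroblast genes named below. The part of other cells in these shares was not tested. The shares over all genes are not matched for level, and genes of low level pass 3-fold more often. At 1 week 3.15% of the lowest quintile of level were higher and 1.37% lower, against 0.25% and 0.05% of the highest quintile. Of the 39 lower genes, 4 of 24 (16.7%) were over 3-fold lower at 3 weeks, against the 0.125% of all genes, and 14 of 29 (48.3%) at 12 weeks, against 6.57%. Both the 4 and the 14 include *Il10rb*, the disrupted gene itself, whose lower level at each age is set by the genotype.

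Past 3-fold in the same direction at all 3 ages were 6 higher genes, *Agpat9*, *Chil1*, *Il23a*, *Inhba*, *Mcemp1* and *Vegfa*, and 3 lower ones, *Cxcr5*, *Il10rb* and *Mroh2a*. *Inhba* had 87.6 and 1519 normalized counts in *Il10rb*+/- and *Il10rb*-/- MΦs at 3 weeks and 434 and 29089.7 at 12 weeks, ratios of 4.12 and 6.07 after 2.32 at 1 week. For *Il23a* the 3 ratios were 1.80, 2.49 and 3.33, for *Chil1* 2.77, 2.40 and 6.11, and for *Vegfa* 1.97, 2.20 and 2.79. In these 4 the ratio at 12 weeks was the highest of the 3.

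The genes that turned at 12 weeks were of several kinds. The collagen genes, *Dcn*, *Sparc* and *Acta2* of the fibroblast list were higher in *Il10rb*-/- MΦs at 1 week and over 3-fold lower at 12 weeks, and so were *Cd209f*, *Cd209g*, *Lpl*, *Gpnmb*, *Adamdec1* and *Hal*. Of the lower genes, *Gbp4* and *Rsad2* were over 3-fold higher at 12 weeks, and *Rsad2* also at 3 weeks. *Rsad2* had 404 and 1276 normalized counts at 3 weeks and 1128 and 4344 at 12 weeks.

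Over whole lists, the median of the same 35 type I interferon genes was -0.59 at 1 week, 0.54 at 3 weeks, where 32 were positive, and 0.99 at 12 weeks. The median of the interferon-γ list was -0.25 at 1 week and then 0.86 and 1.74, with all 24 genes positive at both later ages. The ratio of *Ifnb1* was -2.33, -0.63 and -3.61 at the 3 ages, and *Ifit1* had -2.59, 0.10 and -1.29. The inflammatory list kept its sign, with medians of 0.42, 0.80 and 1.56. The cholesterol list had -0.51, 0.12 and 0.53, and the ribosomal proteins 0.54, -0.22 and 0.17. The differences between ages were not tested.

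**Figure D4:**
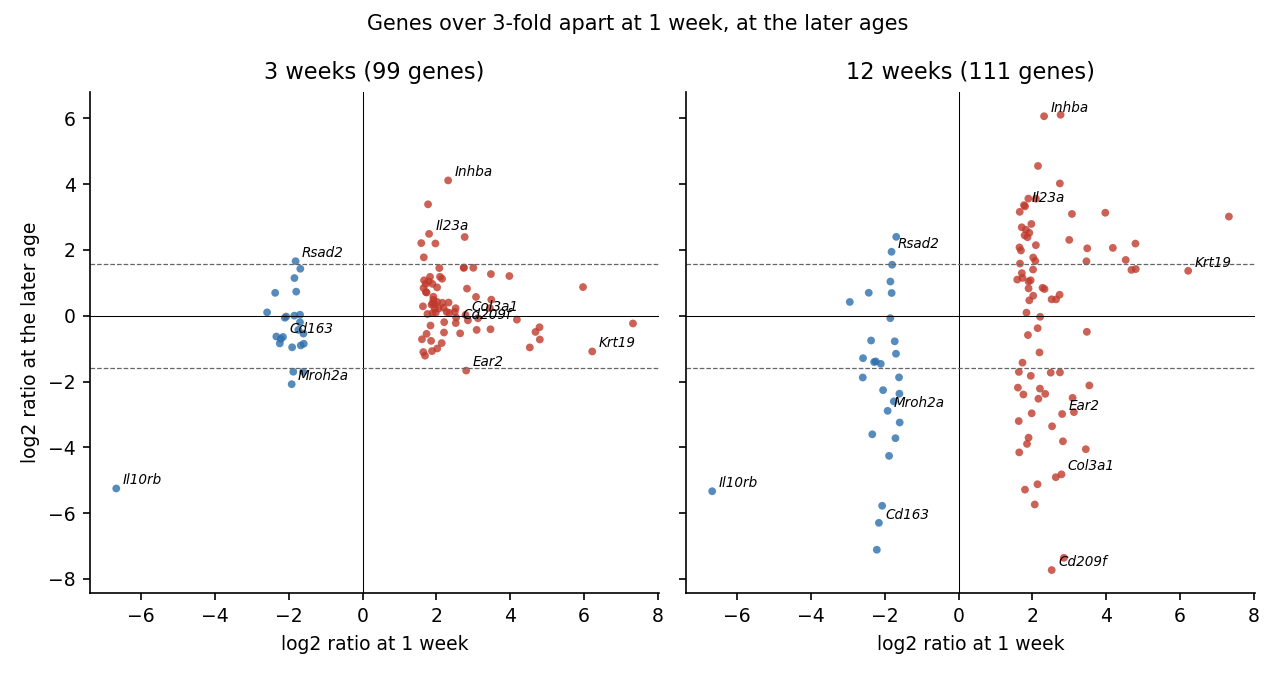
Log2 ratio at 1 week (horizontal) against that at 3 weeks and at 12 weeks (vertical) for the genes over 3-fold higher (red) or lower (blue) at 1 week that reached 50 normalized counts at the later age, with dashed lines at 3-fold and genes without a read in 1 library placed at their bound against 3 reads. At 3 weeks most of the 99 genes lie between the lines, and at 12 weeks the higher genes split into 30 above and 28 below them.

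**Figure D5:**
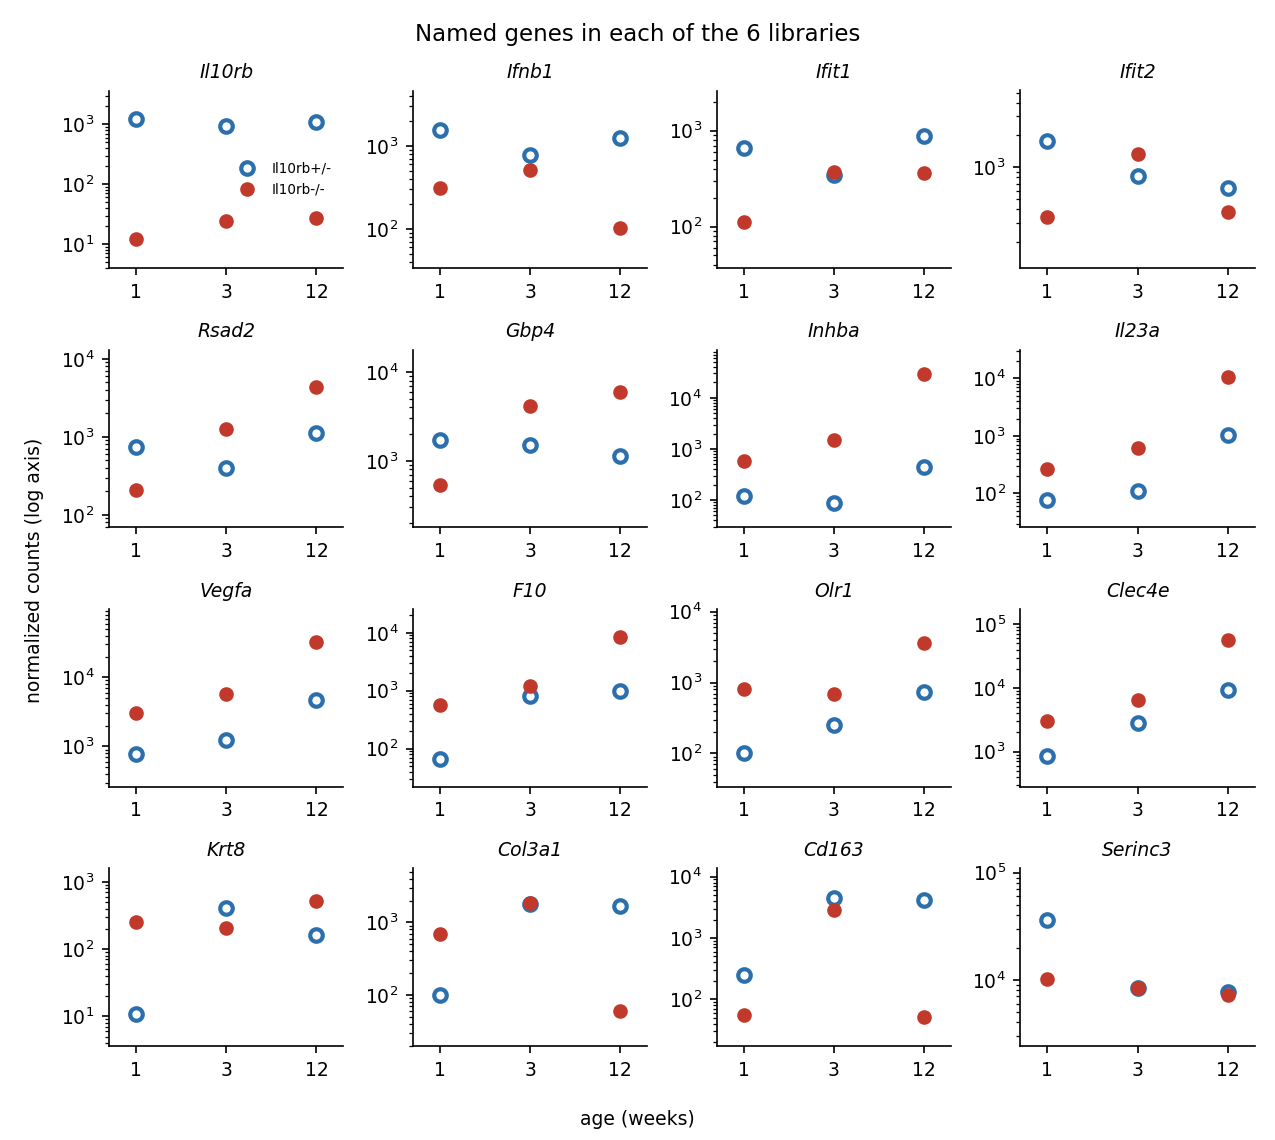
Normalized counts (log axis, a scale for each panel) of 16 named genes in each of the 6 libraries, open for *Il10rb*+/- and filled for *Il10rb*-/-, by age in weeks. At 1 week *Ifnb1*, *Ifit1*, *Ifit2*, *Rsad2*, *Gbp4*, *Cd163* and *Serinc3* are lower in *Il10rb*-/- MΦs and *Inhba*, *Il23a*, *Vegfa*, *F10*, *Olr1*, *Clec4e*, *Krt8* and *Col3a1* higher. Each point is 1 library.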

How the data were processed

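The data are RNA-seq libraries of sorted colonic P3/P4 MΦs, 1 per genotype and age. Per the labels and the methods of the study, the authors trimmed reads with Trim Galore, aligned them to mm10 with TopHat, obtained gene counts with HTSeq and normalized them by the size factors of DESeq. The deposited values are therefore a normalized signal per gene, with 0 shown as 1, not scaled by gene length. Tool versions, annotation and strand setting are not given in the sources used here. The labels name a SMART-Seq kit where the methods name oligo dT selection, and the pool sizes of both differ, so those of the labels are given.

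All values in each library were whole multiples of 1 step (tolerance 0.01), 0.992 normalized counts per read in the 1-week *Il10rb*+/- and 1.50 in the *Il10rb*-/- library, so reads were read back and the filter of 50 equals 50.4 and 33.4 reads. Because the deposited table holds normalized values, no count model was fitted, and with 1 library per group no test was run. The 95% intervals come from the exact Clopper-Pearson bounds on the share of a gene's reads that the *Il10rb*-/- library holds, and describe counting error alone. A fold against 0 reads is a lower bound from 3 reads in that library. Chromosomes, spans and exonic lengths are those of GENCODE M21 on GRCm38, the assembly of mm10, which held 14085 of the 14097 genes. The chromosomes of the other 12 were taken from RefSeq by symbol.

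A gene is called past 3-fold, the threshold the study used. Gene lists (49, with 1014 genes) are described by counts and medians. Named genes are *Il10rb*, members of lists past 3-fold (at most 6 a list) and those under it with most reads (at most 4), the 25 highest and 25 lowest by the bound of the interval nearest 0, the 10 with most reads past 3-fold, and 8 genes the study names. Further members are named where they are the extremes or the defining genes of a list, and these were chosen after their values were seen. Some genes of these lists are not reported here. The members and lists were chosen with earlier results of these data known. Promoters are from RefSeq, and matched 7705 of the 9853 genes. The computations used Python 3.11.15 (scipy 1.17.1, numpy 2.4.6 and pandas 2.3.3, with matplotlib 3.10.9 for plots), and were tested on simulated data. Alternatives changed the scaling, filter, pseudocount, depth, threshold and gene length. No replicate block could be made.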

Additional observations from a re-analysis of the deposited data

Results flagged for a closer look

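The genes below were past 3-fold one way at 1 week and past 3-fold the other way at a later age, and the lists had medians whose order-statistic intervals lay on opposite sides of 0. Of the genes with that turn, values are given for those the naming rule picked. Each ratio sets 1 library against 1, and no age difference was tested.

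Over 3-fold higher in *Il10rb*-/- MΦs at 1 week and over 3-fold lower at 12 weeks were 28 genes. Among them were *Acta2* (1.86 at 1 week and -3.90 at 12 weeks), *Col1a1* (2.53 and -3.36), *Col1a2* (3.45 and -4.06), *Col3a1* (2.79 and -4.82), *Dcn* (3.13 and -2.93) and *Sparc* (3.09 and -2.50), all of the fibroblast list. The 11 genes kept of the 26 listed had a median of 1.86 at 1 week and -2.93 at 12 weeks. Of these, 6 had been kept through the 1-week *Il10rb*-/- library alone, which fixed their positive sign at 1 week.

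Others with the same turn were *Adamdec1* (1.64 and -4.16), *Gpnmb* (1.76 and -2.40), *Lpl* (2.16 and -2.52), *Lyz1* (2.35 and -2.38), *Hal* (2.83 and -3.82) and *Il22ra2* (3.54 and -2.12). *Cd209f* (2.52 at 1 week) and *Cd209g* (2.85) had 861 and 665 reads in *Il10rb*+/- MΦs at 12 weeks and 0 in *Il10rb*-/- MΦs, which against the floor of 3 reads puts the ratios at -7.74 and -7.36 or lower. *Ear2* was 2.81 at 1 week, -1.67 at 3 weeks and -2.99 at 12 weeks. The other 13 of the 28 were *Cav1*, *Cd207*, *Efnb2*, *Htra3*, *Il17rc*, *Itih5*, *Kcnn4*, *Myl9*, *Pianp*, *Rgs18*, *Slc36a2*, *Synj2* and *Wnt11*.

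The opposite turn, lower at 1 week and higher later, was seen in 2 interferon genes. *Rsad2* had ratios of -1.81, 1.66 and 1.95 at 1, 3 and 12 weeks, and *Gbp4* -1.69 at 1 week and 2.40 at 12 weeks. The median of the type I interferon list was -0.59, 0.54 and 0.99, and that of the interferon-γ list -0.25, 0.86 and 1.74. Cholesterol synthesis had -0.51 at 1 week and 0.53 at 12 weeks, and the ribosomal proteins 0.54 at 1 week and -0.22 at 3 weeks.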

How the results depend on the processing

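The numbers of genes past 3-fold, 88 higher and 39 lower, rest on genes of low counts. They were 33 and 15 with 50 normalized counts in both 1-week libraries (added after the data were seen), 47 and 13 by the bound of the interval, 297 and 79 with 50 in any of the 6 libraries, 809 and 276 with no filter beyond 1 read, and 237 and 169 at 2-fold. The lower genes were 23 with a pseudocount of 10 and 24 with a filter of 100. Scaling by total reads, by trimmed mean of M values or by median of ratios moved every ratio by 0.00, 0.03 and 0.05. The median of the ribosomal proteins, 0.54, was 0.59 with median-of-ratios scaling and 0.41 less the median of its length decile. The other medians of the 14 lists plotted stayed within their order-statistic intervals under each setting. Of the medians of the 40 lists with 6 or more genes kept, 9 changed sign less the median of the length decile, among them those of the CC chemokines (0.26 to -0.02), the sort antigens (0.08 to -0.11), the resident MΦ genes (0.01 to -0.13) and the *Il10rb* neighbours (-0.13 to 0.05). With median-of-ratios scaling 6 changed sign and with trimmed mean of M values 4. Of 236 named genes, 111, 69 and 39 moved beyond their counting interval under these 3 settings. No log2 ratio of a named gene past 3-fold changed sign, but neither a pseudocount nor shifts as small as those of the scalings could have turned one. Each ratio sets 1 pool against 1, so mouse-to-mouse spread, the sex of the pools and genotype cannot be told apart. No paired analysis was possible because each genotype has 1 library at 1 week.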

Other observations

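Among the lists not described above, the median was -0.03 for 40 cell cycle genes, -0.01 for 24 immediate early genes and -0.02 for 15 heat shock genes. It was 0.04 for 15 genes of MHC class II presentation, with *H2-Eb2* (55 and 11 reads, log2 ratio -1.73, -2.81 to -0.78) the 1 gene past 3-fold, 0.14 for 17 regulators of NF-κB, -0.06 for 14 costimulatory and checkpoint ligands and -0.27 for 13 complement genes, which became 0.23 with no filter beyond 1 read. Lysosomal proteases and hydrolases had 22 of 27 negative ratios and a median of -0.12, with *Ctsc*, which activates granule proteases, at 56433 and 40069.9 normalized counts (log2 ratio -0.49, -0.52 to -0.47) and *Glb1* at 734 and 341 (log2 ratio -1.10, -1.32 to -0.89).

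The transcription factors of MΦs had a median of 0.08 over 28 genes. *Cebpb*, a factor of myeloid activation, stood at 22772 and 46097 normalized counts (log2 ratio 1.02, 0.99 to 1.04), and *Irf4* at 1263 and 803 (log2 ratio -0.65, -0.80 to -0.51). The 13 dendritic cell genes kept had a median of -0.02 and none past 3-fold, and the 3 endothelial genes kept had one of -0.60.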
